A study of Mus musculus with 6 samples.

Results

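The 10 genes described here encode a pair of activating receptors of natural killer (NK) cells, the transmembrane adaptors that carry their signalling motifs, and the first enzymes and scaffolds that act on those motifs. They were chosen by symbol as Ncr1, Fcgr3, Tyrobp, Hcst, Fcer1g, Cd247, Syk, Zap70, Plcg2 and Lat2, and all 10 were found among the 23841 genes of the deposited count table. Each was sequenced deeply in every library, with at least 978 counts, and all 10 were among the 16144 genes that passed the filter on low counts. Of the 10 genes, 1 was called higher in conventional NK cells, Cd247, by 5.46-fold, and 0 were called the other way, beside 1.69% and 4.07% of all genes tested.

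RNA was sequenced from 2 populations sorted from the kidneys of naive wild-type C57BL/6 mice, without disease or treatment, with 3 pools per population. Type 1 innate lymphoid cells (ILC1), tissue lymphocytes related to NK cells, were gated as CD49a+ and low to intermediate for CD49b. Conventional NK cells (cNK), which circulate and kill, were gated as CD49b high, and both gates also required NK1.1+NKp46+CD3- cells. How old the mice were, of which sex, how many made up a pool and whether each pool had its own animals is not given in the sources used here. The p-values therefore cover only the variation among these pools, which may be technical.

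Activating NK receptors have short tails without signalling motifs and pair in the membrane with small adaptors. Tyrobp (DAP12), Fcer1g (the Fc receptor gamma chain) and Cd247 (the CD3 zeta chain) carry immunoreceptor tyrosine-based activation motifs (ITAMs), whereas Hcst (DAP10) carries a motif that recruits phosphoinositide 3-kinase. Src family kinases phosphorylate an ITAM, which then binds the tandem SH2 domains of the kinases Syk or Zap70, and these in turn engage scaffolds such as Lat2 and phospholipases such as Plcg2.

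The libraries held between 22633440 and 28327265 counts. Mitochondrially encoded genes took between 1.38 and 6.53% of counts in ILC1 and between 3.15 and 12.7% in cNK. All 8 ILC1 markers were called higher in ILC1 and all 8 cNK markers higher in cNK, beside 4.07% and 1.69% of all genes tested. The lists include Itga1 (CD49a) and Itga2 (CD49b), on which the cells were sorted, so that these 2 calls follow from the gates. Markers of macrophages, monocytes and dendritic cells, which also use Tyrobp, Fcer1g, Fcgr3, Syk, Plcg2 and Lat2, were present too. The 26 of them made up between 0.549 and 1.17% of counts in ILC1 and between 0.138 and 0.169% in cNK, and none was at 0 in any library. Of the 26, 12 were called higher in ILC1 and 0 in cNK, beside 4.07% and 1.69% of all genes tested. They did not all differ alike. C1qa, C1qb and C1qc averaged 11.4, 23.8 and 16.9 CPM (TMM-scaled read counts relative to library size) in ILC1 and 11.5, 22.1 and 15.2 CPM in cNK. Ccr2 averaged 475 and 363 CPM, and Itgax 285 and 214 CPM, so that both weigh on the summed share in cNK. Markers of kidney epithelium were present as well. These 12 made up between 0.0835 and 0.362% of counts in ILC1 and 0.144, 0.571 and 0.479% in cNK pools 1 to 3. Of them, 0 were called in either direction, and their part in the results was not tested. In bulk RNA, fewer cells of a type and less RNA per cell cannot be told apart.

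The promoter windows of 3 adaptor genes are shown because the results below turn on how these adaptors stand to each other, with Cd247 on one side and Fcer1g and Hcst on the other. Windows run from 250 bases before to 50 bases after the start, read 5′ to 3′ on the strand of the gene, and come from RefSeq on GRCm38.p6, where 8 of the 10 genes matched an entry. Capitals mark matches, on either strand, to GGAAG (the core of ETS factor motifs), TGTGGT (Runx factors) or AGGTGT (T-box factors).
Cd247 (chr1:165788431-165788730, plus strand): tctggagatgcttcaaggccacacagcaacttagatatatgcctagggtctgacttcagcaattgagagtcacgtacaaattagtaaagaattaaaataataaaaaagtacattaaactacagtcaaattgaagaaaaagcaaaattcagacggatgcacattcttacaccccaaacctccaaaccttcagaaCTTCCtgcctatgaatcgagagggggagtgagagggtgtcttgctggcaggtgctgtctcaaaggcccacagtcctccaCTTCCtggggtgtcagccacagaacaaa
Fcer1g (chr1:171234300-171234599, minus strand): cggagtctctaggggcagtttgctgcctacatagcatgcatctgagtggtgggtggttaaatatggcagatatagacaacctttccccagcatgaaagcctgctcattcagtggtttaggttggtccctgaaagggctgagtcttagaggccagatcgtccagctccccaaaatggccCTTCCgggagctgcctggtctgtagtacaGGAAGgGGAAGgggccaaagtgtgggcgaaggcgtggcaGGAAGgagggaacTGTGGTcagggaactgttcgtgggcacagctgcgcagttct
Hcst (chr7:30419805-30420104, minus strand): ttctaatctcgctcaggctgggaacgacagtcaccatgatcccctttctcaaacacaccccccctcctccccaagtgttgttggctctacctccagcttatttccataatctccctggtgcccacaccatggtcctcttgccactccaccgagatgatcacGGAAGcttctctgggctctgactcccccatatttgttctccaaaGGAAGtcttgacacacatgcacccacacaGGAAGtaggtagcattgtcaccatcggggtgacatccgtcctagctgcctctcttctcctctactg
The Cd247 window held 2 matches to the ETS letters, the Fcer1g window 4 and the Hcst window 3. Of all 32851 windows in the table, 71.4% held at least 1 such match. Fcer1g also held 1 match to the Runx letters, which 16.8% of all windows held, and none of the 3 windows held the T-box letters, found in 13.7% of all windows. The 2 listed windows of Ncr1 overlap each other and held 2 Runx matches each. A match or its lack says nothing here about binding of a factor.

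Among the adaptors, Cd247 stood apart from the others. Its transcript level was 41.2, 49.9 and 35.2 CPM in ILC1 pools 1 to 3 and 259.4, 205 and 225 CPM in cNK pools 1 to 3. Every cNK library lay more than 4-fold above every ILC1 library. The log2 fold change of ILC1 over cNK was -2.45 ± 0.21 (SE), with an adjusted p of 0.00147 in edgeR's quasi-likelihood test, and Cd247 ranked at place 77 of all genes tested by that value. The adjusted p of Cd247 was 0.0519 with the share of myeloid markers as a covariate (log2 fold change -2.02 ± 0.40 SE), a share that itself differed between the populations in every library. Cd247 lies on chromosome 1 (GRCm38, 165788681 to 165877277), where exons of Pou2f1 on the opposite strand and of Gm16565 on the same strand overlap its own, so that some reads cannot be assigned with certainty. Both partners stood lower, with Pou2f1 at 23.9 ± 4.40 CPM (mean ± SD, n = 3) over ILC1 and 17.4 ± 5.06 CPM in cNK, and Gm16565 at 7.52 ± 1.0 and 10.2 ± 1.94 CPM, and neither was called.

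Tyrobp, the adaptor of activating Ly49 receptors, averaged 940.0 ± 322 CPM (mean ± SD, n = 3) in ILC1 and 1957 ± 328 CPM in cNK. The single libraries read 667, 1294 and 859 CPM in ILC1 and 1603, 2251 and 2016 CPM in cNK. The populations did not overlap, but the log2 fold change of -1.06 ± 0.29 (SE) did not pass the edgeR test, with an adjusted p of 0.10. DESeq2's Wald test called it higher in cNK (adjusted p = 0.0121), as did edgeR without ILC1 pool 2, the highest of the ILC1 pools (edgeR adjusted p = 0.0499). Over the 17 other settings its edgeR, limma or DESeq2 adjusted p lay between 0.0121 and 0.571.

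Fcer1g, which pairs with NKp46 and with Fc receptors, read 1225, 1946 and 1316 CPM in ILC1 and 1977, 2423 and 2285 CPM in cNK. The highest ILC1 library lay just below the lowest cNK library. The log2 fold change was -0.58 ± 0.24 (SE) and did not pass (edgeR adjusted p = 0.273).

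Hcst, an adaptor of NKG2D, read 156, 299 and 196 CPM in ILC1 and 201, 270 and 275 CPM in cNK. The ILC1 pools spanned the whole range of the cNK pools, and the log2 fold change was -0.20 ± 0.28 (SE, edgeR adjusted p = 0.735). Hcst and Tyrobp lie tail to tail on chromosome 7 (GRCm38, 30417712 to 30419854 on the minus strand and 30413760 to 30417585 on the plus strand), with 126 bases between their ends.

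**Figure D1:**
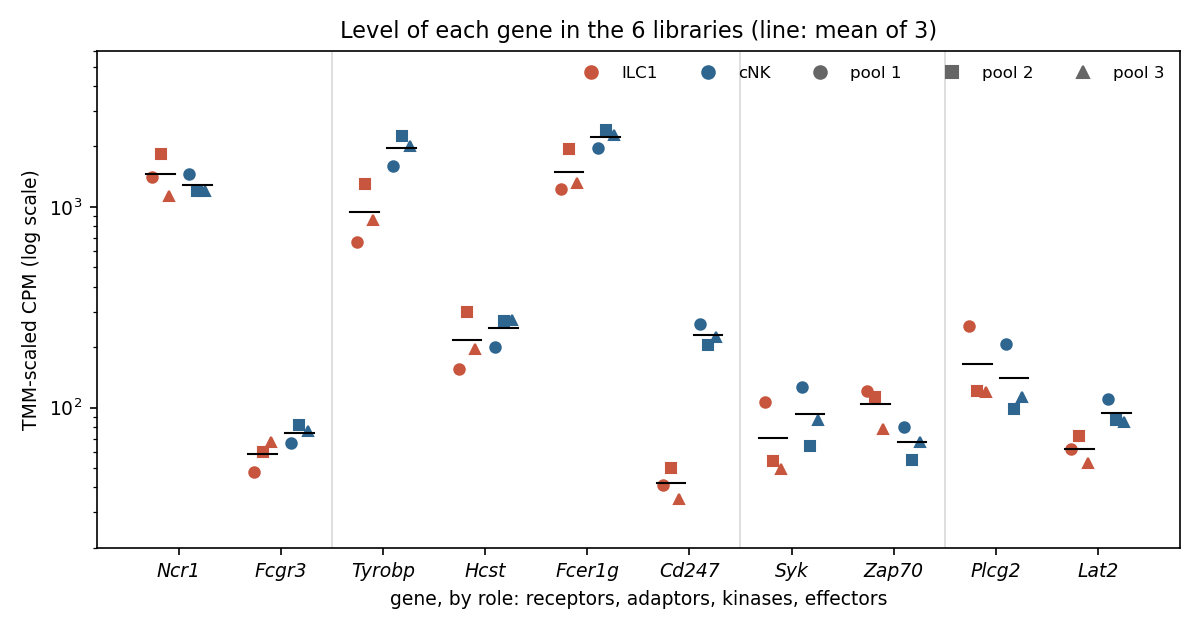
Level of the 10 genes in each library, in TMM-scaled CPM on a log axis, with ILC1 in red, cNK in blue, a symbol for each pool number and a line at the mean of 3 pools. The cNK libraries of Cd247 lie at 205 CPM or above and its ILC1 libraries at 49.9 CPM or below. Pool 1 of both populations lies highest for Syk, Zap70 and Plcg2.

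The make-up of the adaptor pool was examined within each library, per kilobase of annotated exon. Such a share does not depend on how libraries are scaled to each other. Fcer1g took 53.4, 48.5 and 49.0% of the summed adaptor level in ILC1 pools 1 to 3 and 45.3, 42.3 and 43.2% in cNK pools 1 to 3. Tyrobp took 38.1, 42.3 and 41.9% in ILC1 and 48.1, 51.5 and 49.9% in cNK. Per kb Fcer1g had the largest share in every ILC1 library and Tyrobp in every cNK library, but in CPM Fcer1g exceeded Tyrobp in all 6 libraries, so that the order in cNK rests on the exonic lengths. Hcst took 8.24, 9.01 and 8.83% in ILC1 and 5.58, 5.69 and 6.28% in cNK. Cd247 took 0.295, 0.204 and 0.215% in ILC1 and 0.975, 0.587 and 0.697% in cNK, the smallest share in each library. That place also rests on length, since in CPM Cd247 exceeded Hcst in cNK pool 1, and the difference in its mean share, ILC1 minus cNK, was -0.515 percentage points per kb and -3.42 without division by length. The populations did not overlap in any of the 4 shares, and each share had an exact permutation p of 0.1 (two-sided, also 0.1 adjusted over 4 shares), the smallest that 3 pools against 3 can give. The 4 shares of a library add up to its whole adaptor level, so that they are not independent results. Fcer1g took a smaller share in cNK although its CPM in every cNK library lay above every ILC1 library. The summed level of the adaptors averaged 3429 ± 1030.0 CPM per kb (SD, n = 3) in ILC1 and 5870 ± 800.3 CPM per kb in cNK.

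**Figure D2:**
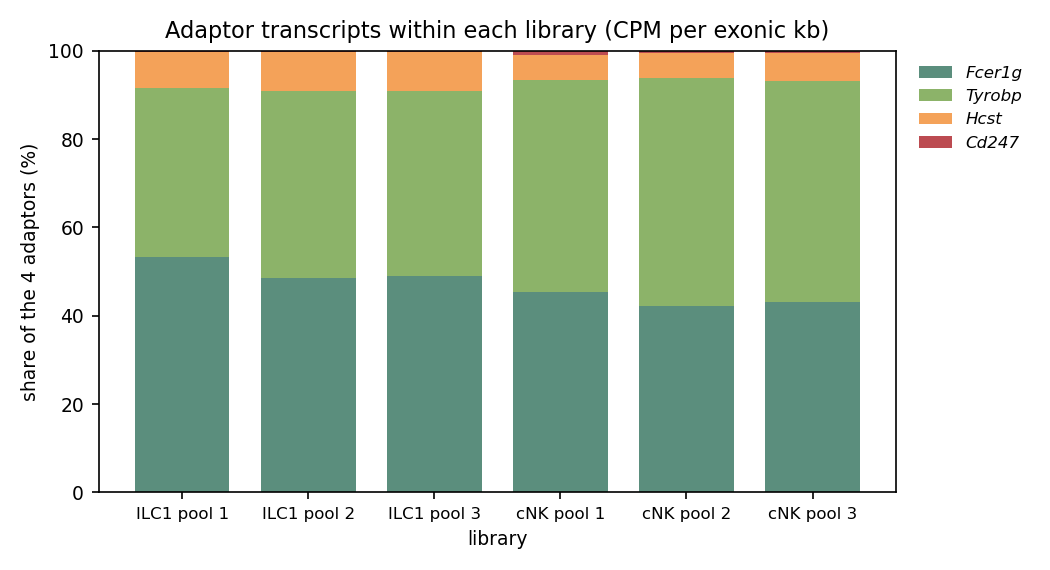
Share of each adaptor in the summed level of Fcer1g, Tyrobp, Hcst and Cd247, in percent of CPM per exonic kb, with 1 bar per library. Tyrobp takes between 48.1 and 51.5% in the cNK bars and between 38.1 and 42.3% in the ILC1 bars, and Cd247 is a sliver below 1% in every bar.

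The same adaptors were set against each other as ratios within a library. Tyrobp over Hcst per kb was 4.62, 4.69 and 4.75 in ILC1 and 8.63, 9.04 and 7.94 in cNK. The 3 ILC1 pools differed little in this ratio, although the level of each gene in ILC1 pool 2 was close to double that of pool 1, and the mean ratio was 1.82-fold higher in cNK. Fcer1g over Cd247 per kb was 181, 237 and 227 in ILC1 and 46.5, 71.9 and 61.9 in cNK, a mean ratio 3.61-fold higher in ILC1. Tyrobp over Fcer1g per kb lay between 0.713 and 0.871 in ILC1 and between 1.06 and 1.22 in cNK.

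The receptors themselves differed less between the populations than Cd247. Ncr1, which encodes NKp46 and was part of both sort gates, read 1411, 1840 and 1133 CPM in ILC1 and 1456, 1202 and 1195 CPM in cNK. The ranges overlapped, and the log2 fold change was 0.19 ± 0.24 (SE, edgeR adjusted p = 0.706). Ncr1 lies on chromosome 7 (GRCm38, 4337724 to 4345164).

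Fcgr3 encodes the mouse low-affinity IgG receptor of NK cells, which needs Fcer1g to reach the surface. It read 47.8, 60.4 and 67.5 CPM in ILC1 and 66.7, 81.6 and 76.0 CPM in cNK. The highest ILC1 library reached into the cNK range, and the log2 fold change was -0.35 ± 0.19 (SE, edgeR adjusted p = 0.401). ILC1 pool 3, the highest of its population, also had the highest myeloid marker share, 1.17% of counts. With that share as a covariate the log2 fold change was -0.66 ± 0.40 (SE, edgeR adjusted p = 0.485). The share is nearly aligned with the population, so that the part of those cells cannot be told apart. Fcgr3 lies 165 kb from Fcer1g on chromosome 1 (GRCm38, 171051174 to 171064935) and shares much of its sequence with its neighbour Fcgr2b, so that the values of both are uncertain.

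Of the kinases, Zap70 leaned toward ILC1 and Syk toward cNK, and neither passed alone. Zap70, the kinase of T cells and NK cells, read 122, 113 and 77.9 CPM in ILC1 and 80.4, 54.8 and 67.2 CPM in cNK. The lowest ILC1 library fell just under the highest cNK library (log2 fold change 0.63 ± 0.24 SE, edgeR adjusted p = 0.225). Syk, which is also the kinase of B cells and myeloid cells, read 107, 54.5 and 49.3 CPM in ILC1 and 126, 64.6 and 86.7 CPM in cNK, with wide overlap (log2 fold change -0.40 ± 0.38 SE, edgeR adjusted p = 0.612).

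Set against each other within a library, the kinases separated the populations. Syk over Zap70 per kb was 0.281, 0.154 and 0.202 in ILC1 and 0.502, 0.377 and 0.412 in cNK. Per kb Zap70 exceeded Syk in all 6 libraries, but in CPM, without division by length, Syk exceeded Zap70 in all 3 cNK libraries, so that the order of the kinases rests on the lengths. The mean ratio was 2.07-fold higher in cNK on either scale, a difference of -1.05 on the log2 scale for ILC1 minus cNK. The exact permutation p was 0.1 (two-sided), the smallest that 3 against 3 allows. Syk lies on chromosome 13 (GRCm38, 52583173 to 52648792) and Zap70 on chromosome 1 (36761798 to 36782818). The exonic length of Syk, 9362 bases over all its annotated transcripts against 2992 for Zap70, lowers the ratio in all libraries alike.

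Plcg2, the phospholipase C gamma 2 that cleaves membrane phosphoinositides below ITAM receptors, read 256, 120.3 and 120 CPM in ILC1 and 208, 98.7 and 113 CPM in cNK. Pool 1 stood above pools 2 and 3 in both populations, by 2.13-fold in ILC1 and 1.97-fold in cNK, and the difference between populations was small beside this spread (log2 fold change 0.24 ± 0.41 SE, edgeR adjusted p = 0.776). Syk showed the same pattern, with pool 1 at 2.06-fold the mean of pools 2 and 3 in ILC1 and 1.67-fold in cNK. Zap70 did so less, at 1.27-fold and 1.32-fold. Tyrobp and Hcst showed the reverse, with pool 1 at 0.619 and 0.631 times the mean of the others in ILC1 and 0.751 and 0.739 times in cNK. Fcer1g and Fcgr3 did too, at 0.751 and 0.748 times in ILC1 and 0.84 and 0.847 times in cNK. For Ncr1, Cd247 and Lat2, pool 1 lay below that mean in ILC1 and above it in cNK. Pool 1 also had the lowest mitochondrial share of each population, 1.38% in ILC1 and 3.15% in cNK. With that share as a covariate, Plcg2 had a log2 fold change of -0.39 ± 0.33 (SE, edgeR adjusted p = 0.698). Syk had -1.0 ± 0.31 (SE, edgeR adjusted p = 0.157). The part of that share in the spread among pools was not tested. Plcg2 lies on chromosome 8 (GRCm38, 117498291 to 117635142).

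Plcg1, the related phospholipase used by T cell receptors, was the rarer of the pair in every library. It read 22.5, 6.80 and 7.38 CPM in ILC1 and 2.94, 2.86 and 2.34 CPM in cNK. All ILC1 libraries lay above all cNK libraries, but the log2 fold change of 2.17 ± 0.51 (SE) was not called (edgeR adjusted p = 0.0630). It was called higher in ILC1 without ILC1 pool 3 (edgeR adjusted p = 0.0295), without the filter on low counts (0.0497) and in DESeq2 (0.00105). Without ILC1 pool 1, its highest library, the log2 fold change was 1.39 (edgeR adjusted p = 0.0717), and over all single libraries left out the adjusted p reached 0.25. Plcg2 over Plcg1 per kb was 20.7, 31.9 and 29.3 in ILC1 and 125, 61.0 and 84.5 in cNK, a mean ratio 3.22-fold higher in cNK.

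Lat2 encodes NTAL, a transmembrane scaffold of B cells, mast cells and NK cells. It read 62.0, 71.8 and 52.9 CPM in ILC1 and 110.0, 87.2 and 84.5 CPM in cNK. The populations did not overlap, but the log2 fold change of -0.59 ± 0.20 (SE) was not called (edgeR adjusted p = 0.164), except with the mitochondrial share as a covariate (log2 fold change -0.83, edgeR adjusted p = 0.0489). Its exons overlap those of Rfc2 on the opposite strand of chromosome 5 (Lat2 at 134600022 to 134615025 on GRCm38), which averaged 110.0 ± 15.2 CPM in the ILC1 pools and 138 ± 7.37 CPM in the cNK pools (mean ± SD, n = 3) and was not called. Lat, the related scaffold of T cells, read 48.9, 62.5 and 43.2 CPM in ILC1 and 51.3, 46.7 and 56.0 CPM in cNK. Lat2 over Lat per kb lay between 1.21 and 1.34 in ILC1 and between 1.59 and 2.26 in cNK.

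**Figure D3:**
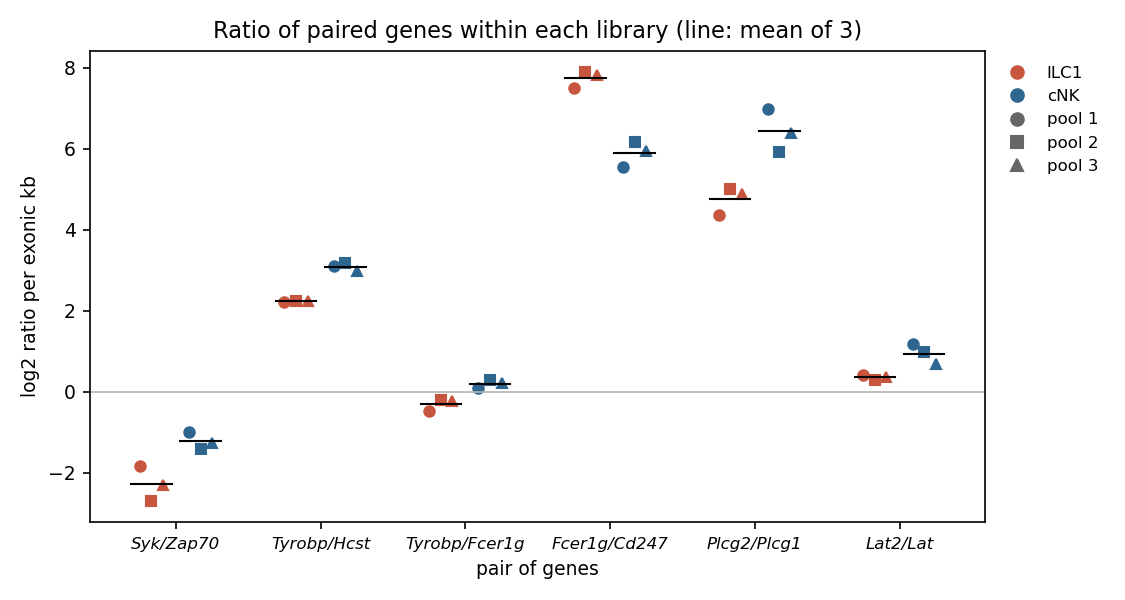
Log2 ratio per exonic kb of 6 pairs of genes within each library, with ILC1 in red, cNK in blue, a symbol for each pool number and a line at the mean of 3 pools. The populations do not overlap in any pair, and the widest differences are in Fcer1g/Cd247 (1.85 on the log2 scale, ILC1 minus cNK) and Plcg2/Plcg1 (-1.69).

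The populations stood apart in all 6 ratios. Each had an exact permutation p of 0.1 (two-sided, also 0.1 adjusted over the 6), which is the smallest that 3 pools against 3 can give, so that no ratio could pass 0.05. The pairs were chosen with results of these data known. Some share a gene, such as Tyrobp in Tyrobp/Hcst and Tyrobp/Fcer1g, so that the 6 are not independent results.

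**Figure D4:**
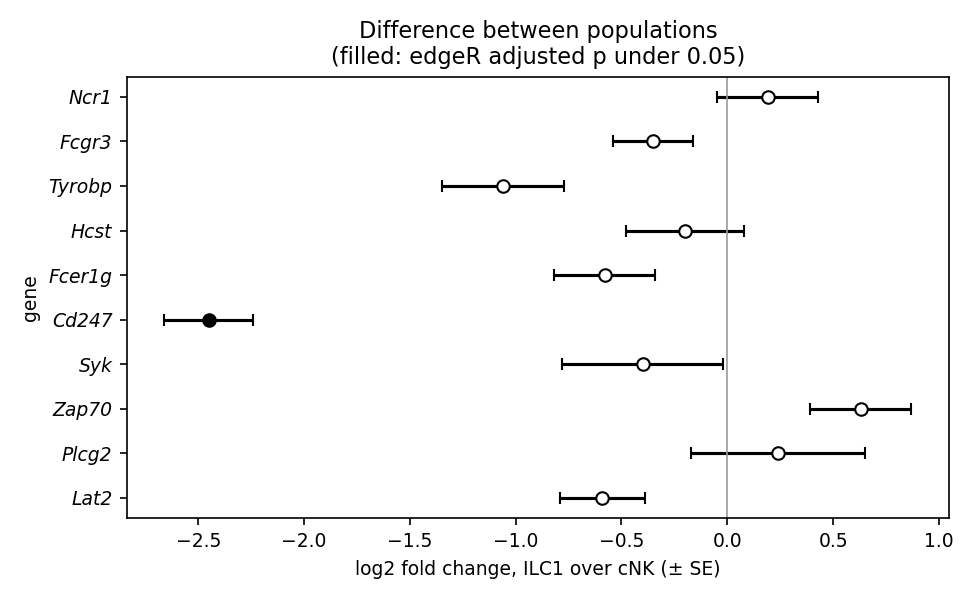
Log2 fold change of ILC1 over cNK for each of the 10 genes with its standard error from edgeR's quasi-likelihood test, filled where the adjusted p is under 0.05. Cd247 at -2.45 is the filled point, and the other 9 lie between -1.06 and 0.63.

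Over the 10 genes, 7 had a log2 fold change below 0 and 3 above, with a median of -0.38 beside 0.01 for all genes tested. At an unadjusted p under 0.05 in edgeR, 4 lay toward cNK and 1 toward ILC1, beside 6.63% and 11.4% of all genes tested. DESeq2 called 2 toward cNK, Cd247 and Tyrobp, and 0 toward ILC1, beside 3.37% and 5.73% of the genes it tested. The libraries of Cd247, Tyrobp, Fcer1g and Lat2 did not overlap between the populations, all 4 toward cNK. Among all genes tested, 9.06% had every cNK library above every ILC1 library and 15.0% the reverse, against 4 and 0 of these 10.

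Per kilobase of exon, the 10 genes fell into a high and a low tier in both populations. The high tier held Fcer1g, Tyrobp, Ncr1 and Hcst. In ILC1 these averaged 1711 ± 450 (SD, n = 3), 1409 ± 482, 949 ± 232 and 300.4 ± 102 CPM per kb, where Fcer1g overlapped Tyrobp and Tyrobp overlapped Ncr1. In cNK the order began with Tyrobp at 2933 ± 492 CPM per kb and Fcer1g at 2550.0 ± 261, which overlapped each other, followed by Ncr1 at 834 ± 96.4 and Hcst at 344 ± 56.9. By this level Fcer1g ranked at place 26 in ILC1 and Tyrobp at place 27 in cNK among 16122 genes.

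The low tier lay below Hcst in every library. In ILC1 it ran from Plcg2 at 38.5 ± 18.2 CPM per kb (SD, n = 3) through Zap70, Fcgr3 and Lat2 to Cd247 at 7.90 ± 1.39 and Syk at 7.49 ± 3.39, and the last 2 overlapped. In cNK Cd247 headed the low tier at 43.1 ± 5.14 CPM per kb, level with Fcgr3 at 43.1 ± 4.33, and Syk was again last at 9.88 ± 3.33. Cd247 thus stood at place 9 of the 10 in ILC1 and at place 5 in cNK. Between ranks 5 and 9 in cNK each gene overlapped the next. Exonic lengths are unions over annotated transcripts, so that a gene with long rare transcripts is ranked too low.

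Other genes of the pathway, in 6 lists by role, were called mostly toward ILC1. Among 93 tested genes, 17 were called toward ILC1 and 4 toward cNK, beside 4.07% and 1.69% of all genes tested, and the median log2 fold change was 0.37 beside 0.01 for all genes. Leaving out pool 1 of ILC1 or of cNK gave 11 calls toward ILC1, leaving out cNK pool 2 gave 8 and leaving out cNK pool 3 gave 6. Over all genes, calls toward ILC1 also fell, from 657 to 451, 388, 336 and 214 in the same order. Of the pathway genes, 10 were called toward ILC1 (481 of all genes) when ILC1 pool 3 and cNK pool 2 were both dropped. With the myeloid marker share as covariate, 2 were (159 of all genes). Of the 15 calls toward ILC1 lost with that covariate, 10 had a log2 fold change at least as large as without it, such as Cd160 at 2.50 ± 0.51 (SE). The other 5 had a smaller one, such as Cd300c2 at 1.05 ± 0.71 (SE) and Sirpb1a at 0.77 ± 0.72 (SE). The SE of the 15 was 1.19 to 2.06 times as large. The covariate and the population are nearly aligned, so that the part of myeloid cells in these calls cannot be told apart from the population by this fit. Dropping ILC1 pool 3 gave 6 calls toward cNK, while those over all genes rose from 273 to 672. The calls of 9 of these 21 genes held with any single library left out, among them those of Klra4, Klra8, Slamf6, Cd226, Cd160, Cd3g, Vav3 and Ubash3a, and 12 were lost without at least 1 library, cNK pool 3 in each case. Leaving out cNK pool 3 also gave the fewest calls over all genes of any single library, 214 toward ILC1 and 93 toward cNK. For the counts per list below, the shares of all genes at an unadjusted p were 11.4% and 6.63%. By DESeq2 they were 5.73% and 3.37%.

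Receptors that use these adaptors or act beside them were called in both directions. Among 24 tested, 5 stood higher in ILC1 and 3 in cNK, with a median log2 fold change of 1.35. DESeq2 called 12 and 4, an unadjusted p under 0.05 in edgeR also gave 12 and 4, and the myeloid share as covariate left 1 and 3. The median of 1.35 leans on genes of low count. All tested Trem, Clec5a, Siglech, Pilrb, Cd300 and Sirpb1 genes stood at 23.0 CPM or below in every library. Their log2 fold changes ran from 0.77 (Siglech) to 4.04 (Sirpb1c). Those of the other receptors ran from -7.52 (Klra4) to 2.84 (Cd226), with Cd244a at 0.18. Klra4 and Klra8, which encode the activating receptors Ly49D and Ly49H and signal through Tyrobp, were the widest differences of the list toward cNK. Klra4 stood at 4.18, 6.90 and 2.59 CPM in ILC1 against 775, 923 and 817 CPM in cNK, and Klra8 at 9.15, 8.44 and 3.96 against 572, 686 and 616 CPM, though reads of these near-identical genes are uncertain. Slamf6, a SLAM family receptor, was the third call toward cNK (log2 fold change -4.29 ± 0.55 SE, and -5.13 without ILC1 pool 3).

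Toward ILC1, Cd226 (DNAM-1) had a log2 fold change of 2.84 ± 0.22 (SE) and Cd160, a receptor for HVEM and class I molecules, stood at 308, 541 and 363 CPM in ILC1 against 71.6, 92.8 and 108 CPM in cNK (2.16 ± 0.28 SE). The remaining 3 calls were the paired receptor Pilrb1 and the myeloid receptors Cd300c2 and Sirpb1a, all under 20 CPM in every library. Cd300c2 read 18.7 CPM and Sirpb1a 15.8 CPM in ILC1 pool 3, where the myeloid markers were highest, and at most 7.31 and 7.11 CPM in the other ILC1 pools. With the myeloid share as covariate, Cd300c2 had a log2 fold change of 1.05 (edgeR adjusted p = 0.529) against 2.83 without it. Sirpb1a had 0.77 (edgeR adjusted p = 0.653) against 2.85. As that share is nearly aligned with the population, the part of those cells cannot be told apart by this fit. Klrk1, which encodes NKG2D and pairs with Hcst, averaged 1600 ± 335 CPM (mean ± SD, n = 3) over the ILC1 pools and 1330 ± 155 CPM in cNK without a call (edgeR adjusted p = 0.566). Leaving out cNK pool 1 or 2 gave 3 calls toward ILC1, and leaving out cNK pool 3 gave 2.

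Among other Fc receptors, 0 of 6 tested were called by edgeR, with 0 at an unadjusted p under 0.05, and DESeq2 called 0. Fcgr2b, the inhibitory IgG receptor, read 16.3, 12.9 and 39.1 CPM in ILC1 and 33.6, 38.9 and 41.1 CPM in cNK. It was called higher in cNK without ILC1 pool 3 (log2 fold change -1.37, edgeR adjusted p = 0.0209). The same call came without both ILC1 pool 3 and cNK pool 2 (-1.36, edgeR adjusted p = 0.0456). It also came with the myeloid share, nearly aligned with the population, as covariate (-2.49 ± 0.42 SE, edgeR adjusted p = 0.0364). Fcgrt, the neonatal Fc receptor, averaged 26.1 ± 18.1 CPM over ILC1 and 26.9 ± 15.5 CPM over cNK pools (mean ± SD, n = 3). Of the 5 ITAM chains of T and B cell receptors, 1 was called, Cd3g, higher in ILC1 at 44.2, 68.1 and 65.9 CPM against 7.59, 12.1 and 12.0 CPM. Markers of T cells, which both gates meant to remove as CD3+ cells, made up between 0.0895 and 0.123% of counts in ILC1 and between 0.0434 and 0.0522% in cNK. The highest were Trbc1, Trbc2 and Cd28, with means of 311, 355 and 203 CPM in ILC1. Cd3e, Cd4, Cd8a, Cd8b1 and Cd5 averaged 2.65 CPM or less in either population. Trac and Cd3d leaned toward cNK without a call (log2 fold changes -0.47 and -0.71). Of these 11 markers, Cd3g itself and Cd28 were called higher in ILC1, none was at 0 in any library, and their part in the result was not tested. Cd3g moved opposite to Cd247, with which it shares the T cell receptor complex, while Cd3d averaged 6.39 ± 2.73 CPM over ILC1 and 10.5 ± 3.31 CPM in cNK (mean ± SD, n = 3) without a call.

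Src and Tec family kinases gave 4 calls toward ILC1 and 1 toward cNK among 11 tested, with a median log2 fold change of 0.59. Fyn, the Src family kinase called toward cNK, read 271, 234 and 167 CPM in ILC1 and 827, 509 and 594 CPM in cNK (log2 fold change -1.52 ± 0.27 SE), but its edgeR call was lost without ILC1 pool 2 or cNK pool 3. That call was also lost with the myeloid share as covariate (-0.92 ± 0.49 SE, edgeR adjusted p = 0.429). With this covariate the list gave 0 calls in either direction. The calls toward ILC1 included Fgr (1.39 ± 0.25 SE), Tec (1.17 ± 0.24 SE) and, at under 10 CPM, Btk. The call of Fgr was lost without ILC1 pool 2 or cNK pool 2 or 3, that of Tec without ILC1 pool 1 or 2 or cNK pool 2 or 3, and that of Btk without any 1 cNK pool. Lck, which phosphorylates ITAMs in T cells and NK cells, averaged 539 ± 121 CPM over ILC1 and 736 ± 181 CPM in cNK (mean ± SD, n = 3) without a call. Dropping ILC1 pool 2 gave 2 calls toward ILC1 and 0 toward cNK, and dropping cNK pool 2 or 3 gave 1 toward ILC1.

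Downstream adaptors and effectors gave 3 calls toward ILC1 and 0 toward cNK among 29 tested, with 7 and 1 at an unadjusted p under 0.05 and 5 and 0 called by DESeq2. Of all genes, edgeR called 4.07% and 1.69%, with 11.4% and 6.63% at an unadjusted p, and DESeq2 called 5.73% and 3.37%. Vav3, a guanine nucleotide exchange factor, read 119, 82.2 and 81.6 CPM in ILC1 and 28.1, 25.6 and 23.7 CPM in cNK (log2 fold change 1.87 ± 0.21 SE). The adaptor Sh3bp2 (1.04 ± 0.21 SE), which binds Syk family kinases, and the transcription factor Nfatc2 (1.43 ± 0.31 SE) were also called, but both calls were lost without any 1 library other than ILC1 pool 3. The count was then 1 in each case.

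Negative regulators gave 4 calls toward ILC1 and 0 toward cNK among 18 tested, with a median log2 fold change of 0.36, and with 6 and 1 at an unadjusted p under 0.05 and 5 and 0 called by DESeq2. Ubash3a, a phosphatase-like suppressor of T cell receptor signals, read 110, 96.2 and 66.3 CPM in ILC1 and 24.7, 17.3 and 20.9 CPM in cNK (log2 fold change 2.11 ± 0.25 SE). Sla, an adaptor known to lower the level of the CD3 zeta chain in thymocytes, read 553, 520.0 and 368 CPM in the ILC1 pools and 255, 178 and 206 CPM in cNK (1.17 ± 0.24 SE). Pag1, which anchors the kinase Csk (1.47 ± 0.23 SE), and the docking protein Dok1 (0.94 ± 0.21 SE) completed the 4. The call of Pag1 was lost without cNK pool 3, that of Sla without ILC1 pool 1 or 2 or cNK pool 2 or 3, and that of Dok1 without any 1 library other than ILC1 pool 3. Leaving out ILC1 pool 1 or cNK pool 2 gave 2 calls, and leaving out cNK pool 3 gave 1.

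**Figure D5:**
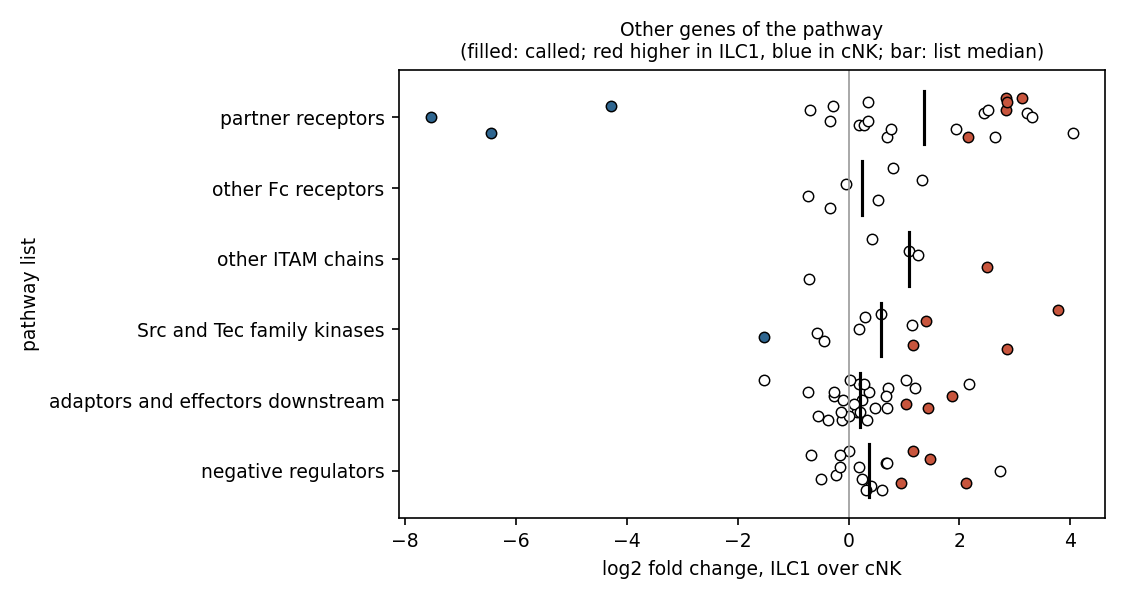
Log2 fold change of ILC1 over cNK for every tested gene of 6 pathway lists, filled red where called higher in ILC1 and blue where called higher in cNK, with a bar at the median of each list. The 17 red points lie in 5 of the 6 lists, and the blue points are Klra4, Klra8, Slamf6 and Fyn.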

How the data were processed

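Raw, whole-number counts per gene in 6 libraries were deposited. On the build GRCm38, the submitters' processing notes list DESeq2 1.30.0, DESeq, R 4.03, STAR 2.6.1 and Trimmomatic 0.38. Which program and annotation did the counting, and whether it used strand, is not given in the sources used here. An entry without a gene identifier, holding 0 counts, was left out. Positions and exonic lengths came from GENCODE M21, which matched 23798 of 23841 identifiers.

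Counts were tested with edgeR 4.0.16 in R 4.3.3 by population alone, with TMM scaling, filterByExpr, a robust quasi-likelihood fit and Benjamini-Hochberg adjustment over all genes at 0.05. SE was taken from the F statistic. Ratios used CPM plus 0.1, and exact permutations enumerated 20 splits. Pathway genes were named where called, up to 4 per direction at 10 CPM or more, or else the 2 of highest level, besides Plcg1 and Lat, and other names were chosen after their values were seen. A gene of the kinase list is not reported here. The members, lists and ratios were chosen with earlier results of these data known. The fit was tested on simulated data. Alternatives were DESeq2 1.42.0, limma 3.58.1 (voom), other size factors and filters, covariates, a block for pool number, and leaving out libraries. Of these, the 2 settings that left out a pair of libraries were added after seeing the data.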

Additional observations from a re-analysis of the deposited data

How the results depend on the processing

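The call of Cd247 was the single one among the 10 genes in most settings. With 2 genes higher in cNK, the DESeq2 Wald test and edgeR with pool number as a block added Tyrobp, and the mitochondrial share as a covariate added Lat2, while 0 were called with the myeloid share as a covariate, which shifted the median log2 fold change of all genes to 0.103. Leaving out 1 library gave 1 to 2 calls toward cNK and 0 toward ILC1. Over the 17 other settings the log2 fold change of Cd247 lay between -2.67 and -2.02. The pathway genes higher in ILC1 numbered 2 with the myeloid share as a covariate (10 of the 15 lost calls had log2 fold changes at least as large, with wider SE, and 5 smaller ones), 28 by DESeq2, 10 without both ILC1 pool 3 and cNK pool 2, and between 6 and 19 without 1 library, and those higher in cNK between 3 and 6. Over all genes, those higher in ILC1 numbered 159, 1100, 481 and between 214 and 695 in the same settings.

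Sign changes were seen in genes without a call. With the myeloid share as a covariate Hcst had a log2 fold change of 0.15 and Syk of 0.24, and with the mitochondrial share Ncr1 had -0.07, Hcst 0.00, Plcg2 -0.39 and Fcgrt 1.24. Without 1 library, Ncr1 ran from -0.01 (ILC1 pool 2 left out) to 0.34, Plcg2 from -0.22 (ILC1 pool 1 left out) to 0.60 and Fcgrt from -0.77 (ILC1 pool 3 left out) to 0.40 (cNK pool 2 left out). The cause was not tested.

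No ratio or share changed direction under its alternatives, and without division by length the Cd247 share differed by -3.42 percentage points. Pools of the same number deviated together for pool 1 (r = 0.672 over 16144 genes) but not for pools 2 (-0.0884) and 3 (0.0833). ILC1 pool 3 and cNK pool 2, of unlike number, reached r = 0.667, and ILC1 pool 1 and cNK pool 2 had -0.705. Deviations were taken from the mean of the 3 pools of each population, so that these correlations are not independent of each other. The main fit did not pair the samples because the labels do not say that pools of one number share mice. With pool number as a block edgeR called 1107 and 675 of all genes higher in ILC1 and in cNK, against 657 and 273 without it, and 25 and 5 pathway genes, and the ratio of Syk to Zap70 differed by -1.05 (exact sign-flip permutation p = 0.25, the smallest possible). With 3 pools each, exact tests cannot go below 0.1.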
